A study of Rattus norvegicus with 36 samples.

Results

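Mature microRNAs (miRNAs) were compared in the infralimbic (IL) prefrontal cortex between 4 rats killed after 4 weeks of forced abstinence from cocaine and 4 rats that never received cocaine. The comparison took the IL libraries of these 8 rats out of 36 libraries in the series, which also hold the prelimbic (PL) cortex and the nucleus accumbens (NAc) of the same rats and the 3 regions of a further group of rats killed at acute withdrawal. All rats were male heterogeneous stock (HS) rats, an outbred line descended from several inbred strains, so each rat was genetically different from the others. The abstinence rats had self-administered cocaine intravenously, first in short and then in long daily sessions, and also went through behavioural tests of drug taking. The naive rats were matched in age at the start of self-administration and had none themselves. Drug, procedures and testing thus differ together between the groups and cannot be told apart. The age of the naive rats when killed is not given, so a difference in age cannot be told apart either. For the withdrawal group the labels give an interval of 16 h and the methods another value. Tissue was cut from thick sections of snap-frozen brain, and each library holds the RNA of all cell types in the piece, in which fewer cells of a type and less RNA per cell cannot be told apart.

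The IL is the ventral part of the rodent medial prefrontal cortex, projects to the shell of the NAc, and is known for its part in extinction and in the restraint of drug seeking. A miRNA gene gives a hairpin RNA, and the enzyme Dicer cuts it into a duplex with a 5p and a 3p arm, of which one is usually kept by an Argonaute protein as the guide and the other is mostly degraded. Bases 2 to 8 of the guide, the seed, pair with messenger RNAs and lower their stability or translation, so miRNAs that share a seed share many predicted targets.

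Of 723 mature miRNAs in the count table, 457 passed the filter on low counts. The call rule was that of the study, a change of 1.5-fold or more together with p under 0.05 before adjustment, and 38 of 457 were called (8.32%), 21 higher (4.6%) and 17 lower (3.72%) after abstinence. None passed a Benjamini-Hochberg adjusted p under 0.05 with edgeR (53 had an unadjusted p under 0.05, lowest adjusted p = 0.248) or with limma-voom (51 unadjusted), and 1, rno-miR-873-5p, did with DESeq2 (58 unadjusted, adjusted p = 0.044). The median log2 fold change (log2FC) of all tested miRNAs was 0.02. The called miRNAs held on average 1.48% of the counts of an abstinence library and 1.61% of a naive library.

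RefSeq (build GRCr8) gave sequences for 37 of the 38, and they had 36 distinct seeds, since rno-let-7c-2-3p and rno-let-7a-1-3p are the same molecule. The sequences below are those of higher miRNAs on which the results turn, with the seed in capitals. They are shown because they fall into an AU-rich and a GC-rich kind, a grouping made after their values were seen. The grouping does not cover all higher miRNAs. The let-7 molecule, with 36.4% GC, was left out. So were the GC-rich rno-miR-666-3p (69.6%), rno-miR-3541 (66.7%), rno-miR-483-3p (63.6%) and rno-miR-143-5p (61.9%). Between the kinds lie rno-miR-207, with 56.5% GC, rno-miR-23b-5p (52.4%), rno-miR-3572 (45.8%) and rno-miR-741-3p (40.9%), which are not shown either. The first lines are the AU-rich kind.
rno-miR-101a-3p: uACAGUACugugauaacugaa
rno-miR-153-3p: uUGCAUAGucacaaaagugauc
rno-miR-384-3p: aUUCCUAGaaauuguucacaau
rno-miR-369-3p: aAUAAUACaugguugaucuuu
rno-miR-374-3p: cUUAGCACguuguauuauuauu
The GC-rich kind follows.
rno-miR-92b-3p: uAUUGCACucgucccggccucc
rno-miR-935: cCAGUUACcgcuuccgcuaccgc
rno-miR-770-5p: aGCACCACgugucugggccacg
rno-miR-25-5p: aGGCGGAGacacgggcaauugc
rno-miR-3594-3p: cACACCGCcucugcccgcuagu
rno-miR-702-3p: uGCCCACCcuuuaccccacucca
The GC content of the 21 higher miRNAs ran from 23.8% to 69.6% with a median of 56.5%, against a median of 50% over all tested miRNAs with a sequence (89.9% of them).

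The lower miRNAs shown next are the ones with the lowest p and those that belong to lists described below.
rno-miR-873-5p: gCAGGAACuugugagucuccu
rno-miR-325-5p: cCUAGUAGgugcucaguaagugu
rno-miR-379-5p: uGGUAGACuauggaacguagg
rno-miR-27b-5p: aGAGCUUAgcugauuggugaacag
rno-miR-187-3p: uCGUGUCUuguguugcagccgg
rno-miR-192-5p: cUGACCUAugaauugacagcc
rno-miR-218a-5p: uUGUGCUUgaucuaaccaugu
rno-miR-132-5p: aCCGUGGCuuucgauuguuacu
rno-miR-146b-5p: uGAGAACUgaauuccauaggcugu
The 16 lower miRNAs with a sequence had a median GC content of 45.6%, and none was above 59.1%. A near copy matters for 2 of the called miRNAs, because reads of molecules that differ by 1 base can be split in counting.
rno-miR-101b-3p: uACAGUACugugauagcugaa
rno-miR-7b: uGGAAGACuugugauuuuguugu
rno-miR-7a-5p: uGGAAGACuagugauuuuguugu
The first of these differs by 1 base from rno-miR-101a-3p and was not called (log2FC = 0.41 ± 0.40, standard error), and rno-miR-7a-5p differs by 1 base from rno-miR-7b and fell just short of the call (log2FC = −0.84 ± 0.46).

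Total counts ran from 6192155 to 11150270 (median 8879928) in the abstinence and from 8510309 to 11035007 (median 9570099) in the naive IL libraries (exact permutation p = 0.514). At this depth 3 counts correspond to 0.272 to 0.464 CPM, the count scaled to a common library size with TMM factors, and 16 of the 38 called miRNAs (12 higher, 4 lower) had a mean under 10 CPM. The RNA integrity number (RIN) was 8.7, 7.9, 9.1 and 8.7 in abstinence rats 1 to 4 and 9.2, 8.9, 9.2 and 9 in naive rats 1 to 4 (8.6 ± 0.50 against 9.07 ± 0.15, SD, n = 4 and 4, exact permutation p = 0.0857), and it was a covariate in the fit. The deviation of each library from the mean of the naive libraries was regressed on GC content over 351 miRNAs. The slope, in log2 units per 10% GC, was 0.333, 0.295, −0.0329 and 0.3004 in abstinence rats 1 to 4 and −0.0263, 0.0900, −0.182 and 0.118 in naive rats 1 to 4. Abstinence rats 1, 2 and 4 thus stood above the naive rats in this slope and abstinence rat 3 lay among them, and the naive slopes centre on 0 because each was taken against the other naive rats. The rats are separate animals, but the fit holds 36 libraries of 12 rats, 3 from each, and takes its error from all of them with 26 residual degrees of freedom, as if they were independent. With the 8 IL libraries alone, 1 per rat, there were 20 calls, of which 15 were among the 38. Which rats shared a sequencing pool is not given in the sources used here.

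**Figure D1:**
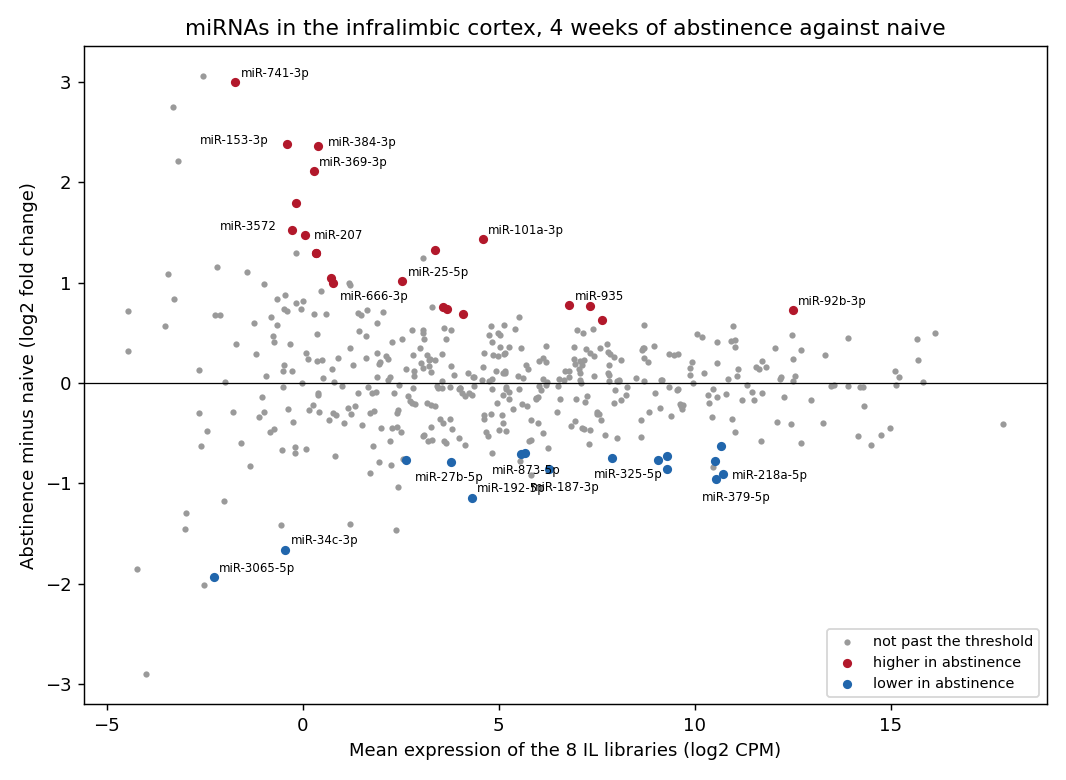
Log2 fold change of abstinence over naive (y axis) against the mean expression of the 8 IL libraries in log2 CPM (x axis), 1 point per tested miRNA, red for the higher and blue for the lower called miRNAs. rno-miR-29a-5p, at 0 counts in all abstinence rats, is not drawn because its fitted fold change is not a measured size. Most red points lie at the low end of expression (median 0.77 log2 CPM) and most blue points further right (median 6.29 log2 CPM). The miRNAs that were not called had a median of 4.84 log2 CPM.

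Among the higher miRNAs of moderate or high level, rno-miR-101a-3p had the lowest p. The miR-101 family is known in human cells for repressing EZH2, the methyltransferase of Polycomb repressive complex 2. rno-miR-101a-3p was at 25.7, 39.7, 29.6 and 58.7 CPM in abstinence rats 1 to 4 and at 17.9, 11.9, 18.4 and 16.1 CPM in naive rats 1 to 4. Every abstinence rat was above every naive rat, and abstinence rat 4 was the highest. The log2FC was 1.43 ± 0.42 (standard error, adjusted p = 0.288; exact permutation p = 0.0286, the smallest that 4 against 4 rats allow), and the call held without any single rat (log2FC from 1.16 to 1.62) and under all 12 other settings tried.

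rno-miR-935, whose gene overlaps Cacng8, an auxiliary subunit gene of AMPA-type glutamate receptors, was at 135.8, 158, 143.7 and 149 CPM after abstinence and at 83.8, 83.5, 77.2 and 96.04 CPM in naive rats. The groups were far apart beside their spread (7.19 ± 0.09 against 6.41 ± 0.13 log2 CPM, SD, n = 4 and 4; log2FC = 0.78 ± 0.23, adjusted p = 0.288). rno-miR-92b-3p was the most expressed called miRNA. Members of its miR-25/92 family share one seed, and miR-92b is known in the mouse from neural progenitors. rno-miR-92b-3p stood at 9886, 8164, 5284 and 6840 CPM after abstinence and at 4044, 4789, 4460 and 4934 CPM in naive rats. The groups did not overlap, although abstinence rat 3 came close to naive rat 4 (log2FC = 0.72 ± 0.28, adjusted p = 0.288). Without abstinence rat 1, the highest, its log2FC was 0.52 and the call ended.

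rno-miR-770-5p comes from a hairpin in Meg3, the first maternally expressed noncoding RNA of the imprinted Dlk1-Dio3 locus. Its level was 287, 170.2, 210.1 and 225 CPM after abstinence and 82.5, 156, 89.3 and 162 CPM in naive rats. The groups did not overlap, with naive rats 2 and 4 just under abstinence rat 2 (log2FC = 0.77 ± 0.32, adjusted p = 0.387), and the call ended without abstinence rat 1, naive rat 1 or naive rat 3 (log2FC down to 0.58). rno-miR-702-3p, from Plod3, a collagen lysyl hydroxylase gene, was at 301, 248, 209 and 309 CPM against 125, 178, 120.4 and 196 CPM (log2FC = 0.63 ± 0.27, adjusted p = 0.387). Its slope on RIN over all libraries was −0.36 log2 units per RIN unit (adjusted p = 0.210), and the part of RIN in the result beyond the covariate was not tested. rno-miR-3594-3p, from the centrosomal gene Cep131, was at 20.1, 17.9, 12.1 and 18.6 CPM against 9.14, 10.52, 7.45 and 11.7 CPM (log2FC = 0.74 ± 0.31, adjusted p = 0.387). In both the groups did not overlap. The call of rno-miR-702-3p ended in 4 of the 8 fits without a single rat (without rats 1 or 4 of the abstinence group or rats 1 or 3 of the naive group, log2FC down to 0.52), and that of rno-miR-3594-3p without abstinence rat 1 (0.61) or naive rat 3 (0.65).

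These miRNAs are GC-rich, and the GC slope of the libraries moved with the groups. With a GC offset per library, an alternative chosen after seeing the data, 24 of the 37 called miRNAs with a sequence remained called. Of the 10 higher miRNAs with at least 60% GC (a split also chosen after the values were seen), 9 lost their call: rno-miR-935 (log2FC = 0.49), rno-miR-92b-3p (0.45), rno-miR-770-5p (0.43), rno-miR-702-3p (0.44), rno-miR-3594-3p (0.37), rno-miR-666-3p (0.55), rno-miR-3541 (0.76), rno-miR-143-5p (0.48) and rno-miR-483-3p (1.06). The exception was rno-miR-25-5p. Of the other 11 higher miRNAs 2 lost it, which are the 2 entries of the let-7c-2-3p and let-7a-1-3p molecule, and of the 16 lower ones 2 did. rno-miR-101a-3p, with 33.3% GC, passed an adjusted p under 0.05 with this offset (adjusted p = 0.0246). The offset was fitted to the same libraries, so it takes out any change that goes with GC content, whatever its cause. The lost calls and the gain of rno-miR-101a-3p therefore do not tell where the changes come from, which was not tested. Across the tested miRNAs with a sequence log2FC and GC content had a Pearson r of 0.14 and a Spearman rho of 0.27, a description over miRNAs that share the same 8 libraries.

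**Figure D2:**
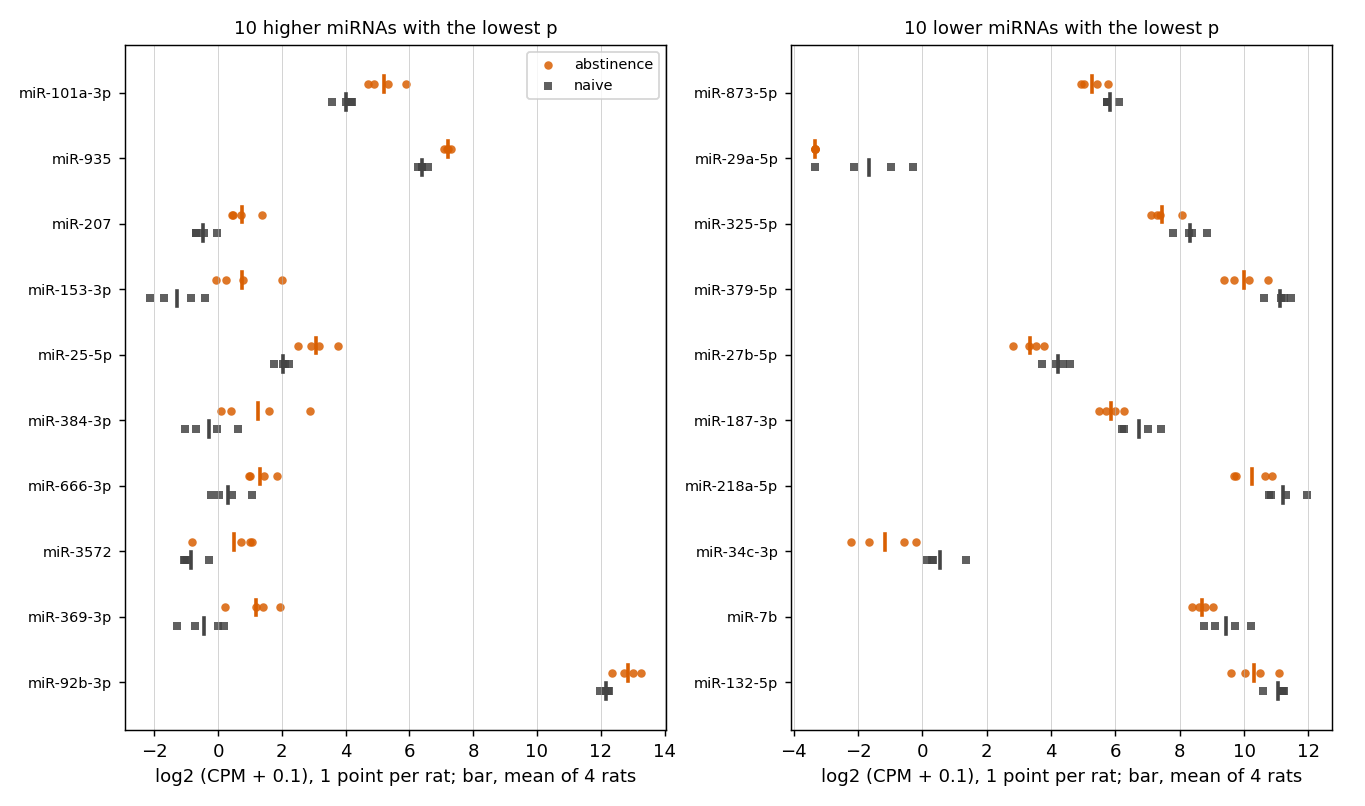
CPM of each rat on a log2 scale, with 0.1 CPM added so that 0 can be drawn, for the 10 higher (left) and 10 lower (right) called miRNAs with the lowest p; circles are abstinence rats, squares naive rats and vertical bars the mean of 4 rats. rno-miR-935 and rno-miR-101a-3p show separate groups, while rno-miR-873-5p and rno-miR-132-5p overlap.

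The higher miRNAs of low level had the larger fold changes. rno-miR-153-3p, a neuronal miRNA known to repress alpha-synuclein, comes from a hairpin within Ptprn2, a dense-core vesicle gene. It was at 1.08, 1.62, 0.86 and 3.95 CPM (7, 14, 9 and 36 counts) after abstinence and at 0.125, 0.454, 0.207 and 0.651 CPM (1, 5, 2 and 5 counts) in naive rats. No naive rat reached an abstinence rat, and abstinence rat 4 was far above the rest (log2FC = 2.39 ± 0.79, adjusted p = 0.288). Without that rat the log2FC was 1.68 and the call ended. rno-miR-384-3p, from an X-linked hairpin, was at 1.24, 2.90, 0.955 and 7.24 CPM against 0.877, 1.45, 0.517 and 0.390 CPM. Here the groups overlapped, since naive rat 2 was above abstinence rats 1 and 3 (log2FC = 2.36 ± 0.84, adjusted p = 0.288; log2FC = 1.52 and no call without abstinence rat 4).

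rno-miR-369-3p, also encoded at Dlk1-Dio3, was at 2.16, 2.55, 1.05 and 3.73 CPM against 0.501, 0.907, 0.310 and 1.04 CPM. The lowest abstinence rat was at the level of the highest naive rat (log2FC = 2.11 ± 0.80, adjusted p = 0.288), and the call held without any single rat. rno-miR-374-3p, whose position overlaps the Ftx and Jpx noncoding genes of the X inactivation centre, was at 1.08, 2.32, 0.573 and 3.07 CPM against 0.501, 0.544, 0.517 and 0.390 CPM (log2FC = 1.79 ± 0.75, adjusted p = 0.387). It too was highest in abstinence rat 4, and its call ended without that rat (log2FC = 1.31). Over all 21 higher miRNAs, abstinence rat 4 was the highest of its group in 10 and abstinence rat 1 in 9. In the 5 AU-rich miRNAs listed first above, which were picked after their values were seen, rat 4 was the highest of the abstinence rats, and in the plot of values by rat, which holds the first 4 of them, it is the right-most circle.

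rno-miR-207, from the heat shock cochaperone gene Dnaja1, was at 2.47, 1.28, 1.24 and 1.53 CPM against 0.877, 0.635, 0.517 and 0.521 CPM, with 11 to 16 counts in an abstinence and 4 to 7 in a naive library. The groups did not overlap and the call held under every setting tried (log2FC = 1.48 ± 0.47, adjusted p = 0.288). rno-miR-25-5p, the minor arm of a hairpin in the replication helicase gene Mcm7, was at 13.4, 7.42, 5.54 and 8.77 CPM against 3.26, 4.54, 4.04 and 4.16 CPM. Again no naive rat reached the abstinence rats (log2FC = 1.01 ± 0.34, adjusted p = 0.288), but without abstinence rat 1 the call ended (log2FC = 0.68). rno-miR-666-3p, another Dlk1-Dio3 miRNA, was at 2.63, 1.86, 1.91 and 3.51 CPM against 0.751, 1.996, 1.24 and 0.911 CPM, with naive rat 2 above 2 abstinence rats (log2FC = 0.99 ± 0.35). For rno-miR-3572, from Cnot3, a subunit gene of the CCR4-NOT deadenylase, abstinence rats were at 2.01, 0.464, 1.91 and 1.53 CPM and naive rats at 0.376, 0.726, 0.414 and 0.390 CPM, with abstinence rat 2 inside the naive range (log2FC = 1.53 ± 0.57). With the rat as a replicate block rno-miR-3572 had a log2FC of 1.19 and lost its call.

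The other 7 higher miRNAs were closer to the threshold (adjusted p from 0.387 to 0.426). rno-miR-3541, from the kinase gene Clk2, was at 1.85 to 2.77 CPM against 1.00 to 1.43 CPM and did not overlap (log2FC = 1.05 ± 0.44). rno-miR-23b-5p was at 31.2, 23.8, 12.9 and 22.1 CPM against 12.2 to 14.8 CPM, with abstinence rat 3 among the naive rats (log2FC = 0.69 ± 0.31). rno-miR-143-5p, of a smooth muscle hairpin in Carmn, overlapped (7.36 to 29.7 CPM against 6.25 to 11.7 CPM; log2FC = 0.76 ± 0.37), as did rno-miR-483-3p from a hairpin within Igf2 (1.86 to 43.7 CPM against 6.76 to 14.1 CPM; log2FC = 1.33 ± 0.65). Without abstinence rat 1, the highest in all 3, the log2FC was 0.43 for rno-miR-23b-5p, 0.28 for rno-miR-143-5p and 0.55 for rno-miR-483-3p, and each call ended. Of the 8 fits without a single rat, 5, 4 and 5 gave no call for these 3, and of 12 other settings 4, 8 and 9 gave none. rno-miR-3541 lost its call without abstinence rat 3 or naive rat 1. The shared let-7c-2-3p and let-7a-1-3p molecule is 1 measurement entered under both names in the table with identical counts, at 1.24 to 2.74 CPM against 0.501 to 1.82 CPM (log2FC = 1.30 ± 0.64), and it lost its call in 6 of the 8 fits without a single rat. rno-miR-741-3p, of an X-linked rodent cluster known from testis, rested on abstinence rat 4 alone (88 counts, against 0 to 2 in the other abstinence rats and 1 to 10 in naive rats). Its fitted log2FC of 2.998 reversed to −1.83 without that rat (exact permutation p = 0.914 with all rats).

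The lower miRNAs were mostly well expressed, and 13 of the 17 had a mean of at least 10 CPM, beside 285 of all 457 tested miRNAs. rno-miR-873-5p, from a hairpin within the neuronal gene Lingo2, had the lowest p of the whole comparison. It was at 32.6, 54.7, 42.9 and 30.2 CPM after abstinence and at 69.6, 53.5, 53.2 and 53.0 CPM in naive rats. Abstinence rats 1, 3 and 4 were under all naive rats, while rat 2, which had the lowest RIN, was above 3 of them (log2FC = −0.71 ± 0.18, adjusted p = 0.248; exact permutation p = 0.114 with no covariate). Its level had a negative RIN slope (−0.37 per RIN unit, adjusted p = 0.0567), and without the RIN covariate its log2FC was −0.51, under the fold threshold.

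rno-miR-325-5p, from an X-linked hairpin near that of miR-384, was at 166, 155.4, 269 and 137.9 CPM against 336, 220.3, 464 and 312 CPM. Only abstinence rat 3 was above a naive rat, rat 2 (log2FC = −0.74 ± 0.25, adjusted p = 0.288), and without naive rat 3 the log2FC of −0.56 missed the fold threshold. rno-miR-379-5p leads the large Dlk1-Dio3 cluster known in rat neurons for activity-dependent control of dendrites. It was at 817, 1142, 1721 and 667.2 CPM against 2262, 1575, 2784 and 2444 CPM, with the same overlap of abstinence rat 3 and naive rat 2. Its log2FC was −0.96 ± 0.35 (adjusted p = 0.288), and the call held without any single rat and under all 12 other settings.

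rno-miR-27b-5p was at 9.89, 11.4, 13.8 and 6.91 CPM against 17.5, 13.2, 24.1 and 20.6 CPM (log2FC = −0.78 ± 0.29, adjusted p = 0.288), and without abstinence rat 4 its log2FC of −0.62 missed the p threshold. rno-miR-218a-5p, a neuronal miRNA encoded in the axon guidance gene Slit3 and at a further locus, was at 819, 1601, 1875 and 862 CPM against 2521, 1740, 3988 and 1827 CPM. Abstinence rat 3 lay above naive rats 2 and 4 (log2FC = −0.90 ± 0.36, adjusted p = 0.377), and the call ended without abstinence rat 1 (−0.76), abstinence rat 4 (−0.74) or naive rat 3 (−0.61). rno-miR-7b, of the miR-7 family that the circular RNA Cdr1as binds, was at 441, 391, 524 and 333 CPM against 846, 433.3, 1177 and 551 CPM (log2FC = −0.77 ± 0.33, adjusted p = 0.387). Its near copy rno-miR-7a-5p was at 1125, 909, 1353 and 788 CPM against 2002, 1381, 3527 and 1494 CPM, and there the groups did not overlap. Without naive rat 3, which was the highest in both, the log2FC of rno-miR-7b was −0.48, with no call. The call of rno-miR-7b also ended without abstinence rat 4 or naive rat 1, in limma-voom and with the 8 IL libraries alone.

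rno-miR-132-5p is the minor arm of a hairpin that the transcription factor CREB induces with neuronal activity. It was at 780.4, 1440, 2181.9 and 1050 CPM against 2371, 1541, 2293 and 2401 CPM, with abstinence rat 3 within the naive range (log2FC = −0.63 ± 0.27, adjusted p = 0.387). rno-miR-146b-5p, of a family known for negative feedback on NF-kappaB signalling, likewise had abstinence rat 3 above naive rat 2, at 736, 1037, 1988 and 730.4 CPM against 2163, 1535, 2442 and 2482 CPM (log2FC = −0.77 ± 0.33). rno-miR-434-5p, from a hairpin antisense to the imprinted gene Rtl1, was at 314, 494.5, 683 and 375 CPM against 977, 565, 1354 and 835 CPM (log2FC = −0.86 ± 0.37). The call of each of these 3 ended without abstinence rat 1 or abstinence rat 4, and their log2FC without a single rat ran from −1.17 to −0.47.

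In 3 lower miRNAs every abstinence rat was under every naive rat. rno-miR-192-5p, a miRNA abundant in liver, kidney and gut, was at 7.26, 12.4, 16.7 and 15.3 CPM against 31.2, 23.3, 53.0 and 25.8 CPM (log2FC = −1.14 ± 0.50, adjusted p = 0.396). Its call ended without naive rat 3 (log2FC = −0.86) and also without abstinence rat 1. rno-miR-34c-3p, known from ciliated cells, had 5, 1, 6 and 2 counts after abstinence and 9, 11, 24 and 9 in naive rats, a ratio of abstinence over naive of 0.277 (95% exact interval from 0.142 to 0.506, counting error only). rno-miR-3065-5p, which lies opposite miR-338 in Aatk, had 1, 0, 0 and 2 counts against 2, 3, 7 and 3, a ratio of 0.210 (0.0389 to 0.741). The call of rno-miR-34c-3p ended without abstinence rat 4 or naive rat 3 and with the 12 or the 8 IL libraries alone. That of rno-miR-3065-5p held in only 4 of the 8 fits without a single rat and in 6 of 11 other settings. Over all 457 tested miRNAs, 32 had groups that did not overlap in either direction (7%), and among the 38 called 15 did, 12 of them higher and 3 lower. The calls and the overlap use the same 8 libraries, so the larger share among the called is no separate support.

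The remaining lower miRNAs were rno-miR-29a-5p, rno-miR-187-3p, rno-miR-1843-5p, rno-miR-22-5p and rno-miR-582-3p. rno-miR-29a-5p had 0 counts in each abstinence rat and 0, 8, 4 and 1 counts in naive rats 1 to 4, 0 against 13 in all. The ratio of abstinence over naive was at most 0.344 (upper 95% exact limit, counting error only), naive rat 1 was at 0 as well, and the fitted fold change is no measured size. rno-miR-187-3p was at 45.1, 76.3, 62.9 and 52.6 CPM against 76.9, 127.99, 173 and 73.5 CPM (log2FC = −0.86 ± 0.32, adjusted p = 0.288), with abstinence rat 2 above naive rat 4, and without naive rat 3 the call ended (log2FC = −0.60). rno-miR-1843-5p (231 to 788 CPM against 728 to 1032 CPM), rno-miR-22-5p (28.0 to 60.7 CPM against 53.6 to 81.7 CPM) and rno-miR-582-3p, from a hairpin within the phosphodiesterase gene Pde4d (3.40 to 7.26 CPM against 6.76 to 11.2 CPM), had log2FC of −0.73 ± 0.33, −0.70 ± 0.33 and −0.77 ± 0.36. In each of these 3 the abstinence rat that overlapped the naive range was rat 3, and the calls ended in 4, 6 and 6 of the 8 fits without a single rat.

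The order of the rats recurred across miRNAs. Abstinence rat 3, the rat with the highest RIN and the lowest GC slope of its group, was the highest abstinence rat in 12 of the 17 lower miRNAs and the lowest in 13 of the 21 higher ones. Without abstinence rat 3 the number of calls was 75, of which 36 were among the 38. Naive rat 3 was the highest naive rat in 11 of the 17 lower miRNAs, and without it 23 calls were left, 19 of them among the 38. Leaving out the other rats in turn gave 26 to 53 calls, and 9 of the 38 were called in every such fit: rno-miR-873-5p, rno-miR-101a-3p, rno-miR-935, rno-miR-207, rno-miR-29a-5p, rno-miR-666-3p, rno-miR-379-5p, rno-miR-3572 and rno-miR-369-3p.

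The other arm of the hairpin was tested for 26 of the called miRNAs. None of these 26 was called, against 8.32% of all tested miRNAs, and 18 had the sign of the called arm. In all 26 pairs the called arm had the larger log2FC in size, which the choice of the called arm favours. rno-miR-132-3p, the main arm of its hairpin, was at 1822, 3503, 3267 and 3330 CPM after abstinence and at 2846, 2549, 2345 and 3222 CPM in naive rats, which overlapped throughout (log2FC = −0.09 ± 0.18), while rno-miR-132-5p was called lower. rno-miR-29a-3p, at 3480 to 6181 CPM against 4344 to 5063 CPM, was not called either (log2FC = 0.06 ± 0.16).

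In 2 hairpins the arms leaned in opposite directions with the larger values. rno-miR-25-3p, the main arm, was at 437, 371, 333 and 228 CPM against 438, 381.5, 811 and 365 CPM (log2FC = −0.54 ± 0.25, adjusted p = 0.426, under the fold threshold), whereas rno-miR-25-5p was higher. rno-miR-369-5p was at 136.8, 159, 360.3 and 161 CPM against 350.1, 278, 386 and 406 CPM (log2FC = −0.55 ± 0.33, adjusted p = 0.467), whereas rno-miR-369-3p was higher. The difference between arms was not itself tested. The other arms rno-miR-434-3p (log2FC = 0.22 ± 0.24), rno-miR-27b-3p (−0.22 ± 0.28), rno-miR-146b-3p (−0.13 ± 0.19), rno-miR-22-3p (−0.14 ± 0.21) and rno-miR-770-3p (0.16 ± 0.26) had values within about 1 standard error of 0. rno-miR-483-5p moved with its partner across rats (31.1, 16.2, 7.16 and 2.74 CPM after abstinence, 5.89 to 7.89 CPM in naive rats; log2FC = 1.25 ± 0.63, adjusted p = 0.439).

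The remaining partner arms of the miRNAs with the lowest p were not called either. The values were 118 to 177 CPM against 80.7 to 210.8 CPM for rno-miR-873-3p and 9.63 to 21.7 CPM against 12.9 to 17.9 CPM for rno-miR-325-3p. rno-miR-384-5p, known in rodent neurons for a part in synaptic potentiation, was at 41.9, 41.8, 104 and 44.6 CPM against 87.9, 62.5, 72.9 and 61.8 CPM, where abstinence rat 3 alone was above the naive rats (log2FC = −0.15 ± 0.34). rno-miR-666-5p was at 33.1 to 81.0 CPM against 36.6 to 40.5 CPM, rno-miR-379-3p at 19.5 to 43.4 CPM against 37.9 to 49.9 CPM and rno-miR-187-5p at 10.6 to 16.5 CPM against 7.39 to 20.05 CPM. For rno-miR-92b-5p the values were 150.1 to 229 CPM against 119.6 to 179 CPM, for rno-miR-34c-5p 41.1 to 57.0 CPM against 30.8 to 210.4 CPM, and for rno-miR-218a-2-3p 0.773 to 2.10 CPM against 0.635 to 2.63 CPM. In all of these the ranges of the groups overlapped.

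**Figure D3:**
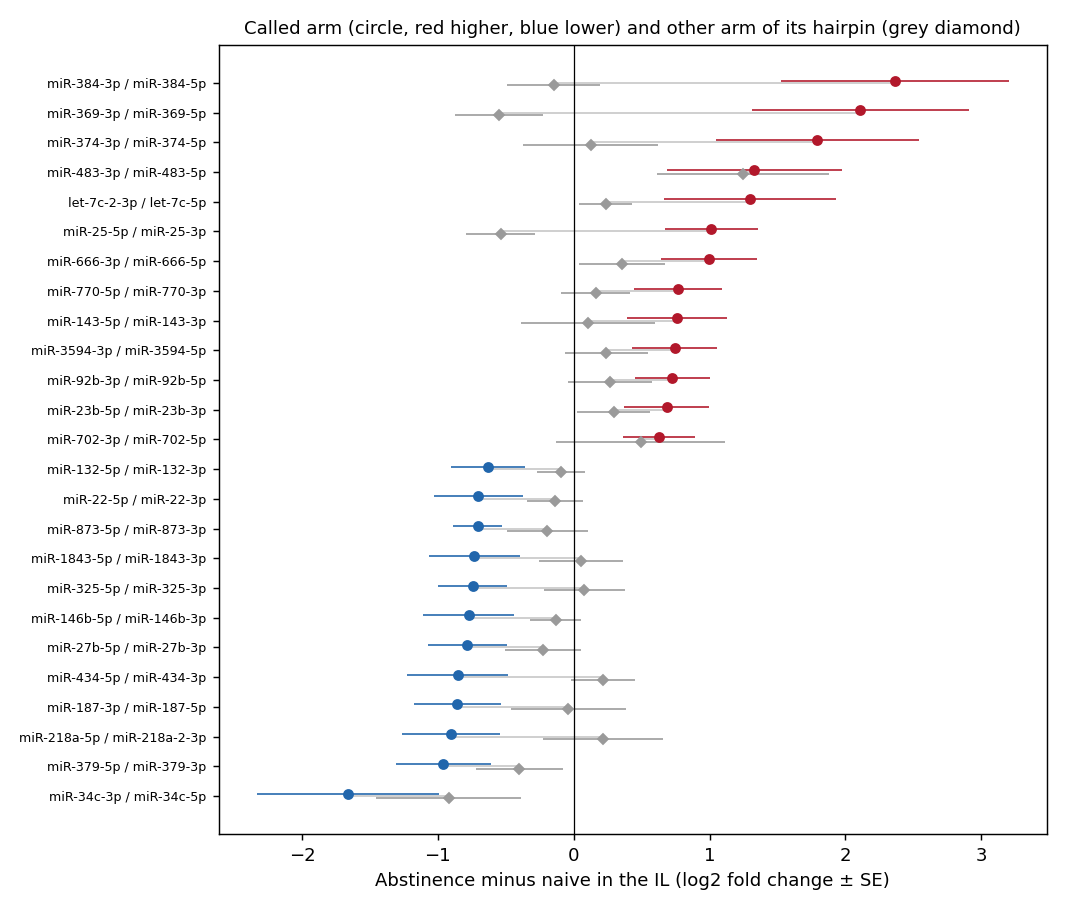
Log2 fold change of abstinence over naive with its standard error (x axis) for 25 called arms (circles, red higher and blue lower) and the other arm of the same hairpin (grey diamonds), 1 hairpin per line. The diamonds lie nearer to 0 than the circles on every line, and none is a call.

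Seed mates and neighbours were compared in the same way. Of 14 pairs of a called miRNA and a tested miRNA with the same seed, 10 had the same sign, and the only called mates were the let-7c-2-3p and let-7a-1-3p pair with each other. Within the family of rno-miR-92b-3p, rno-miR-92a-3p was at 3169, 1794, 956 and 1833 CPM against 1146, 1251, 1634 and 1166 CPM (log2FC = 0.41 ± 0.26), with abstinence rat 3 again the lowest, while rno-miR-25-3p had a negative value (above). Of 107 pairs with a tested miRNA whose gene starts within 10000 bases on the same strand in GRCr8, 49 had the same sign. The miR-23b, miR-27b and miR-24-1 hairpins lie together in Aopep, an aminopeptidase gene, and held calls in both directions, with rno-miR-23b-5p higher and rno-miR-27b-5p lower. rno-miR-24-3p, which can also come from the miR-24-2 hairpin, was lower by less than 1.5-fold (log2FC = −0.39 ± 0.18, adjusted p = 0.426). The arm named for the miR-24-1 hairpin, rno-miR-24-1-5p, was not called (log2FC = −0.52 ± 0.27). rno-miR-212-5p, of the hairpin next to miR-132, had a log2FC of −0.49 ± 0.21 (adjusted p = 0.396), likewise under the fold threshold.

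In all, 15 miRNAs had an unadjusted p under 0.05 and a fold change under 1.5, among them some of the most abundant. rno-miR-125a-5p was at 85575, 84097, 89506 and 84058 CPM after abstinence and at 55450, 69483, 48985 and 69683 CPM in naive rats, with no overlap (log2FC = 0.50 ± 0.19, adjusted p = 0.288). rno-miR-30d-5p, the most abundant miR-30 member, was at 14437, 16160, 16444 and 13384 CPM against 23986, 19853, 25221 and 21357 CPM, again with no overlap (−0.53 ± 0.18, adjusted p = 0.288). rno-miR-541-5p, which is encoded at Dlk1-Dio3, was at 2799, 2875, 3082 and 2370 CPM against 3780, 3114, 4425 and 4859 CPM (−0.58 ± 0.19), just outside the fold threshold. These 3 were picked after their values were seen.

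3 further miRNAs are named by the study for the IL. rno-miR-29b-3p, a miR-29 member, was at 39.4, 46.6, 49.0 and 40.5 CPM against 28.7, 38.7, 19.9 and 28.9 CPM and did not overlap (log2FC = 0.58 ± 0.22, adjusted p = 0.288), just under the fold threshold. rno-miR-1249 was at 612, 458, 365 and 659 CPM against 303, 357, 287 and 430.4 CPM (log2FC = 0.58 ± 0.28, adjusted p = 0.426). rno-miR-136-3p, at 2.01, 2.67, 3.34 and 6.47 CPM against 0.626, 2.45, 0.931 and 4.03 CPM, overlapped and was not called (log2FC = 0.98 ± 0.58).

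Whether the changes differed from those in other regions of the same rats was tested as a difference of changes in the same fit. The PL had 11 calls for abstinence against naive, of which 1 (rno-miR-741-3p) was among the 38, and the NAc had 5, of which 3 (rno-miR-935, rno-miR-770-5p and rno-miR-25-5p) were. Of the 21 miRNAs higher in the IL, 9 had a PL and 11 an NAc change above 0, and of all tested miRNAs 38.9% and 51.6% did. Of the 17 lower, 12 were below 0 for the PL and 14 for the NAc. The IL change differed from the PL change past the thresholds for 38 of 457 miRNAs (8.32%), of which 13 were among the IL calls, and from the NAc change for 19 (4.16%), of which 10 were. None passed an adjusted p under 0.05 with edgeR (lowest 0.416 and 0.790; 39 and 20 had an unadjusted p under 0.05) or with limma-voom (39 and 12 unadjusted). Since the miRNAs were called on the IL change that enters these differences, large differences among them are favoured by the choice.

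rno-miR-101a-3p had a log2FC of 0.42 ± 0.40 (PL) and −0.33 ± 0.39 (NAc), and its IL change exceeded that of the NAc by 1.76 ± 0.55. rno-miR-153-3p exceeded the PL change by 2.76 ± 1.06 and the NAc change by 2.83 ± 1.01. The same held for rno-miR-384-3p (2.88 ± 1.15 and 3.19 ± 1.07) and rno-miR-374-3p (2.21 ± 1.07 and 2.52 ± 0.94), and for rno-miR-369-3p against the NAc (3.09 ± 0.99). The 3 regions come from the same rats, and with the rat as a replicate block rno-miR-384-3p lost the call of both differences (1.74 and 2.06) and rno-miR-374-3p that of the NAc (1.70), as they did in limma-voom without the block. The difference of rno-miR-374-3p from the PL was called in 7 of 17 fits, and without abstinence rat 4 the differences of rno-miR-153-3p, rno-miR-384-3p and rno-miR-374-3p from the PL were not called. Those of rno-miR-369-3p and rno-miR-101a-3p from the NAc were called in all 17. rno-miR-935 changed nearly as much in the NAc (0.70) as in the IL, with a difference of 0.08 ± 0.31. Its difference from the PL was 0.67 ± 0.31, which was past the thresholds in 7 of 17 fits and lost in 7 of the 8 fits without a single rat, with RLE size factors, without the low-count filter and under the GC offset (0.18). Of the lower miRNAs, rno-miR-187-3p differed from the NAc (−1.05 ± 0.42), and rno-miR-27b-5p (−0.86 ± 0.39) and rno-miR-873-5p (−0.63 ± 0.25) differed from the PL, with calls in 16, 14 and 13 of 17 fits. The call ended without naive rat 3 for rno-miR-187-3p, without abstinence rat 4, naive rat 3 or naive rat 4 for rno-miR-27b-5p, and without abstinence rat 4 or naive rat 1 for rno-miR-873-5p.

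**Figure D4:**
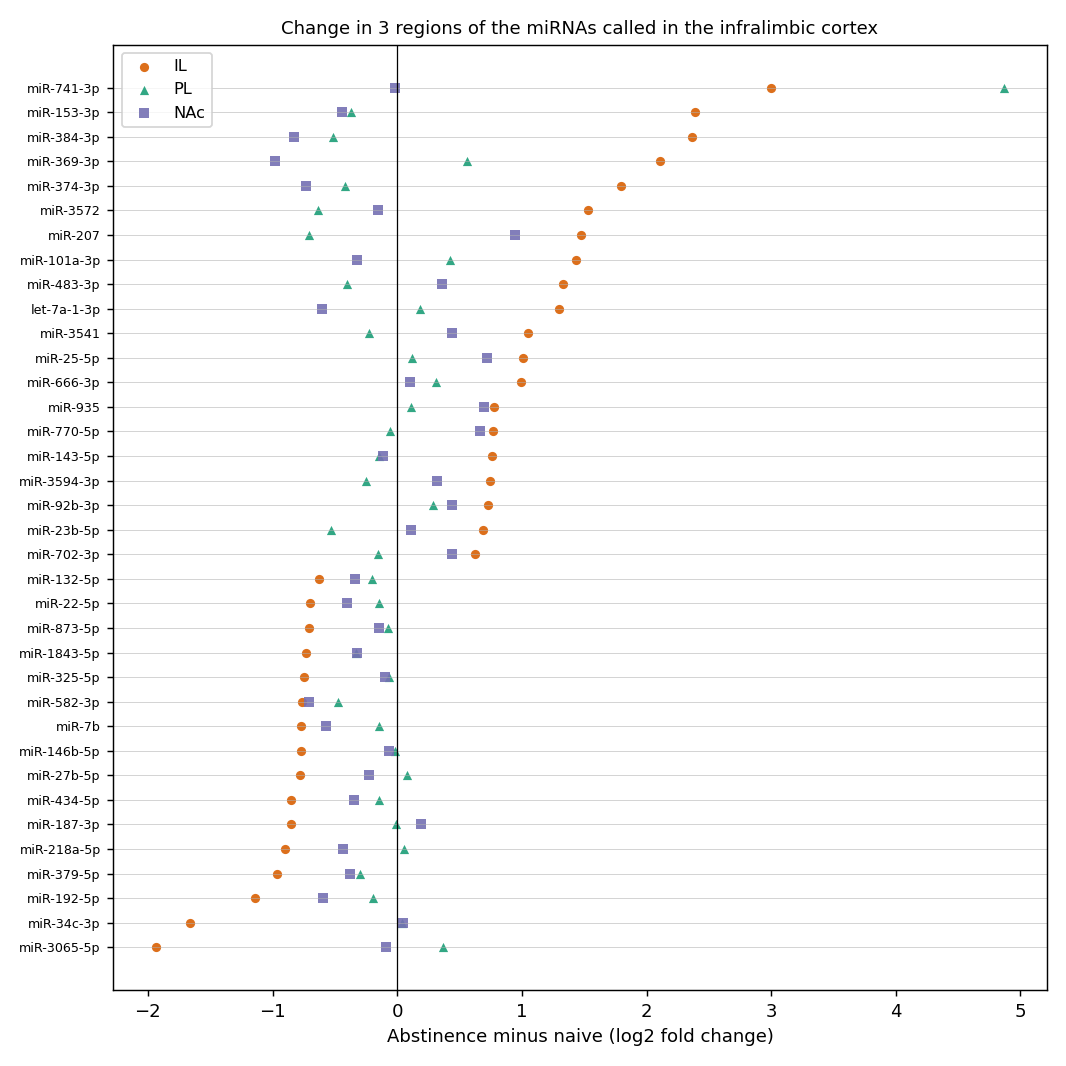
Log2 fold change of abstinence over naive (x axis) in the IL (circles), PL (triangles) and NAc (squares) for 36 miRNAs called in the IL, in the order of the IL change; rno-miR-29a-5p and the duplicate let-7c-2-3p are not drawn. The IL circles are the outer points on most lines because the miRNAs were chosen on them, and rno-miR-741-3p has its largest value in the PL.

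The withdrawal rats were compared with the same naive rats, so the values of the 3 groups are given side by side and no agreement is read from them. The IL level of rno-miR-101a-3p at withdrawal was 15.7, 21.6, 19.5 and 13.1 CPM, within or just above the naive range. For rno-miR-153-3p it was 0.348, 0.355, 0.591 and 0.118 CPM and for rno-miR-374-3p 0.116, 1.30, 0.689 and 0.235 CPM, so that withdrawal rats of the latter lay on both sides of the naive range. For rno-miR-935 it was 192, 111, 122 and 106 CPM and for rno-miR-702-3p 269, 243, 258 and 158 CPM, so that all withdrawal rats of the former and 3 of the latter were above the naive range. For rno-miR-379-5p the withdrawal rats were at 1038, 1622, 1142 and 2043 CPM and for rno-miR-192-5p at 12.4, 15.01, 16.1 and 21.9 CPM, the latter all under the naive range. For rno-miR-187-3p they were at 346, 129.5, 84.5 and 95.4 CPM, above the naive range in 1 rat and within it in the others.

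The defining markers of the tissue were present. The counts of calls in the lists below stand beside 8.32% called among all tested miRNAs, 4.6% higher and 3.72% lower. The neuronal rno-miR-128-3p was the most abundant of its list, at 140021 to 286797 CPM after abstinence and 216961 to 335101 CPM in naive rats (log2FC = −0.40 ± 0.31), and rno-miR-129-5p had a log2FC of −0.02 ± 0.26. Of 27 tested miRNAs of the neuron-enriched list 1 was higher (rno-miR-153-3p) and 3 were lower (rno-miR-218a-5p, rno-miR-7b and rno-miR-132-5p), with a median log2FC of 0.02, equal to that of all tested miRNAs. The oligodendrocyte list (rno-miR-219-2-3p at 1033 to 3715 CPM against 1273 to 3631 CPM, and rno-miR-338-5p with a log2FC of −0.21 ± 0.30) had 0 calls among 4. In the immune cell list rno-miR-146b-5p was the only call of 6, and the lymphocyte miRNA rno-miR-150-5p was not called (log2FC = 0.28 ± 0.21). The erythrocyte miRNA rno-miR-451-5p was under 1 CPM in all 8 libraries. In the vascular list 1 of 6 was called (rno-miR-143-5p), while endothelial rno-miR-126a-3p was at 812 to 1995 CPM against 1542 to 3059 CPM (log2FC = −0.64 ± 0.43) and rno-miR-143-3p at 587 to 2566 CPM against 822 to 2449 CPM.

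The choroid plexus and ependymal list had 1 call of 8 (rno-miR-34c-3p, lower), near the 8.32% of all tested miRNAs, and a median log2FC of −0.91, while its abundant members rno-miR-204-5p (953 to 1424 CPM against 1207 to 1556 CPM) and rno-miR-204-3p (log2FC = 0.18 ± 0.33) were not called, and its summed level was 1168 to 1748 CPM against 1433 to 1980 CPM. A log2FC below 0 was seen in 7 of the 8 and in 47.9% of all tested miRNAs. The uncalled miR-34b, miR-34c and miR-449a members ran from −0.90 ± 0.62 (rno-miR-34b-5p) to −2.01 ± 1.18 (rno-miR-449a-5p). The epithelial and sensory list had 0 calls of 8 and a median of −0.996 at a summed level of 23.8 to 31.7 CPM against 26.7 to 52.7 CPM, led by rno-miR-200c-3p (log2FC = 0.29 ± 0.72) and rno-miR-183-5p (−0.36 ± 1.21). None of the 6 tested miRNAs from introns of the serotonin receptor gene Htr2c was called, rno-miR-1298 (−0.45 ± 0.42) and rno-miR-448-5p (0.24 ± 0.37) included.

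A list of 10 miRNAs with the largest excess of the NAc over the PL in naive rats was summed in the IL libraries. The list was ranked in the same naive rats that enter the IL comparison, so it is not independent of them. The list by itself does not measure accumbens tissue. Its summed level was 1476, 1387, 1807 and 1138 CPM in abstinence rats 1 to 4 and 2544, 1892, 4459 and 1988 CPM in naive rats 1 to 4, so the groups did not overlap. Of the 10, 2 were called lower (rno-miR-187-3p and rno-miR-192-5p), 0 higher, beside 3.72% lower and 4.6% higher among all tested miRNAs. A log2FC below 0 was seen in 9 of them and in 47.9% of all tested miRNAs, and the median was −0.53 against 0.02. rno-miR-7a-5p held most of this sum and is also in the neuron-enriched list, rno-miR-1298 is the next most abundant, and rno-miR-101b-3p, the near copy of rno-miR-101a-3p, is the member with a log2FC above 0. In naive rats rno-miR-187-3p was at 6.72 log2 CPM in the IL, 6.23 in the PL and 10.57 in the NAc, and rno-miR-192-5p at 4.98, 4.60 and 6.88. rno-miR-21-5p had an excess of the NAc over the PL of 3.08 log2 units in naive rats and a log2FC of −0.03 ± 0.47 in the IL. The part of accumbens tissue in the lower level of rno-miR-187-3p, rno-miR-192-5p and rno-miR-7b after abstinence was not tested.

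**Figure D5:**
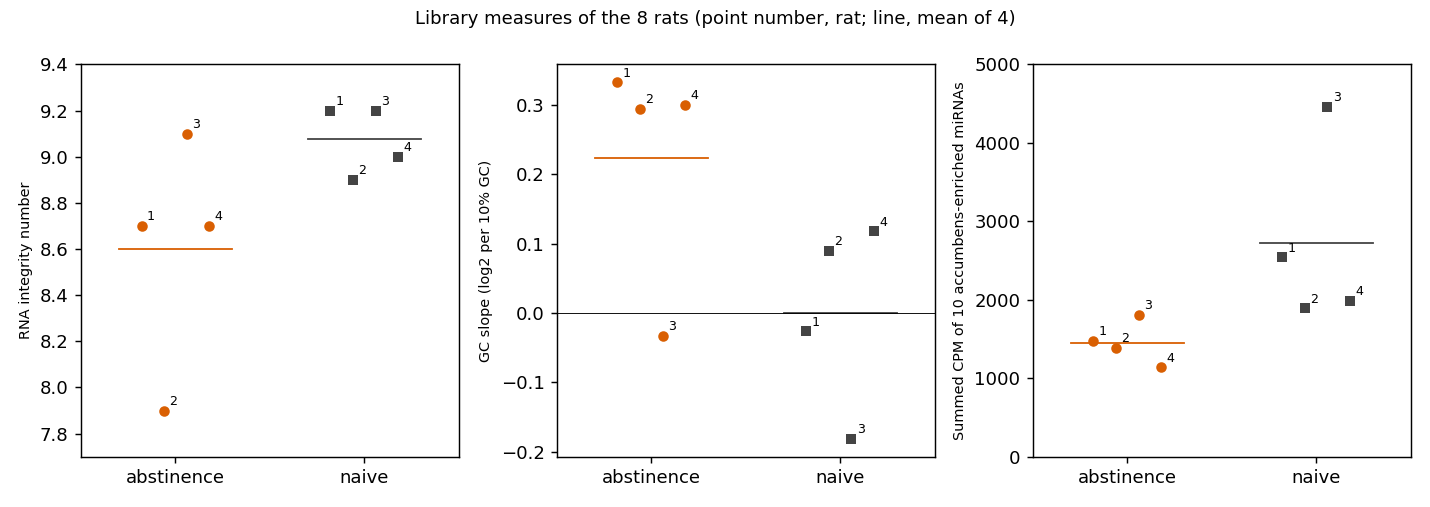
Library measures of the 8 rats (points with rat numbers, lines are the mean of 4): RIN (left, axis not from 0), GC slope in log2 units per 10% GC (middle) and the summed CPM of the 10 accumbens-enriched miRNAs (right). Abstinence rat 3 lies with the naive rats in the first 2 panels, and in the right panel all abstinence rats are under all naive rats.

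Family counts are again to be read beside 8.32% called among all tested miRNAs. The miR-30 list of 13 had 1 call, rno-miR-384-3p, which sits in this family through its other arm. Its summed level was 17205 to 22354 CPM after abstinence and 24868 to 31925 CPM in naive rats, most of it rno-miR-30d-5p, and rno-miR-30c-5p was at 737 to 2127 CPM against 1501 to 1720 CPM. The miR-101 list had 1 call of 2 and the miR-25/92 list 2 of 8 (rno-miR-92b-3p and rno-miR-25-5p, both higher), with a median of 0.34. The let-7 list held the duplicate call only, 2 entries of 16, and its abundant members rno-let-7c-5p (log2FC = 0.23 ± 0.19) and rno-let-7a-5p (0.06 ± 0.14) were not called. In the miR-29 list 1 of 6 was called, the trace arm rno-miR-29a-5p, and rno-miR-29c-5p had a log2FC of −0.06 ± 0.17. The Dlk1-Dio3 list had 86 tested miRNAs, with 3 calls up (rno-miR-369-3p, rno-miR-770-5p, rno-miR-666-3p) and 2 down (rno-miR-434-5p, rno-miR-379-5p), and with a median of 0.02, a share of calls near that of all tested miRNAs. Its most abundant member rno-miR-127-3p was not called (46875 to 72907 CPM against 51505 to 60936 CPM), and rno-miR-543-3p was lower in every abstinence rat by less than 1.5-fold (6891 to 10019 CPM against 10335 to 12711 CPM). Of 12 miRNAs known from cocaine studies in rodents 1 was called (rno-miR-132-5p), again near that share, and the abundant rno-let-7d-5p and rno-miR-181a-5p both had a log2FC of −0.04 (standard errors 0.15).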

How the data were processed

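Small RNA libraries were built from total RNA of frozen IL, PL and NAc pieces. The authors ran CAP-miRseq and deposited raw counts, 1 whole number for each mature miRNA in each library. The methods name another genome build than the submitters' processing notes (mRatBN 7.2, rn 7), so no coordinates are given. None of the 12 pairs of libraries within the abstinence or naive IL group was alike within sampling noise (lowest chi-square per degree of freedom 173).

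The filter was filterByExpr, with 10 as the smallest count and 15 as the smallest total, and TMM gave the scaling factors. The quasi-likelihood test of edgeR 4.0.16 (R 4.3.3) was run on the 36 libraries together, with 1 mean per group and region and RIN as covariate. Standard errors are approximate. Log2 CPM used a prior count of 0.5, and CPM per rat used none. Exact permutation tests are two-sided. limma 3.58.1, DESeq2 1.42.0 and other settings were alternatives, and the fit was tested on simulated data. Figures used matplotlib 3.10.9. Libraries of 1 rat share an animal across regions, not between the groups compared. Sequences, arms and host genes are from RefSeq (GRCr8). A host gene is a gene that overlaps the miRNA in position, and the strands were not compared. The miRNAs named are all 38 past the thresholds, with values by rat for the 10 of each direction that had the smallest p and their partner arms, those the study names for this comparison, and of each list the called and the 2 most expressed members. The members and lists were chosen with earlier results of these data known.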

Additional observations from a re-analysis of the deposited data

Results flagged for a closer look

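A library far from the other 3 of its group was found in 3 of 82 groups of 4 values examined, and chance gives about 1 in 20. Naive rat 1 stood above the other naive rats in rno-miR-873-5p (6.12 against 5.74 log2 CPM for the nearest, a gap of 0.962 of the group's range). Naive rat 2 stood above them in rno-miR-3572 (−0.37 against −1.12 log2 CPM, 0.856 of the range) and below them in rno-miR-132-5p (10.59 against 11.16 log2 CPM, 0.896 of the range).

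The abstinence change differed between regions past the thresholds, without adjustment, for several miRNAs. The IL change exceeded the PL change, on the log2 scale, by 0.67 for rno-miR-935, 2.18 for rno-miR-207, 2.76 for rno-miR-153-3p, 2.88 for rno-miR-384-3p, 2.17 for rno-miR-3572 and 2.21 for rno-miR-374-3p. It also did so by 1.00 for rno-miR-3594-3p, 1.27 for rno-miR-3541, 0.78 for rno-miR-702-3p, 1.22 for rno-miR-23b-5p and 1.03 for rno-miR-1249. Of 17 fits 6 called the difference of rno-miR-3541 (down to 0.80), 7 those of rno-miR-935 (down to 0.18) and rno-miR-374-3p, and 8 that of rno-miR-702-3p (down to 0.37). That of rno-miR-3594-3p was lost under the GC offset (0.39) and without abstinence rat 1 or naive rat 3, and that of rno-miR-1249 under the GC offset (0.51). Those of rno-miR-207, rno-miR-3572 and rno-miR-23b-5p were called in all 17. The difference was −0.63 for rno-miR-873-5p, −0.86 for rno-miR-27b-5p and a fitted −5.36 for rno-miR-29a-5p, which had 0 counts in all abstinence IL libraries, so that its size is no measurement.

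Against the NAc the difference was 1.76 for rno-miR-101a-3p, 2.83 for rno-miR-153-3p, 3.19 for rno-miR-384-3p, 1.69 for rno-miR-3572, 3.09 for rno-miR-369-3p and 2.52 for rno-miR-374-3p. It was 1.90 for rno-let-7c-2-3p and rno-let-7a-1-3p, which are the same molecule, 1.73 for rno-miR-136-3p, −1.05 for rno-miR-187-3p and a fitted −5.02 for rno-miR-29a-5p. The NAc differences of rno-miR-3572 and of the let-7 molecule were called in 8 of 17 fits. They were lost in limma-voom, both without and with the rat as a replicate block. The same 2 fits also ended those of rno-miR-384-3p, rno-miR-374-3p and rno-miR-29a-5p.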

How the results depend on the processing

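The 38 calls (21 higher, 17 lower) became 58 without the RIN covariate (32 lower), 20 with the 8 IL libraries alone (10 higher, 10 lower), and 69 with those libraries and no RIN covariate (32 higher, 37 lower), the last chosen after seeing the data. There were 17 calls at a 2-fold threshold and 0 at an adjusted p under 0.05. The lower calls numbered 30 without the low-count filter and 26 with the 12 IL libraries alone. Leaving out single rats gave 23 to 75 calls (15 to 38 higher, 7 to 37 lower), 23 to 59 differences from the PL and 10 to 27 from the NAc. With the rat as a replicate block in limma-voom (correlation 0.107) there were 40 calls, 33 of them among the 38, with 46 differences from the PL and 12 from the NAc, against 11 from the NAc in limma-voom without the block. In the block fit the NAc library of naive rat 4 formed a block of its own, because the sources used do not list its animal. Replicate numbers do not pair abstinence with naive rats. rno-miR-741-3p reversed in limma-voom (−0.17), with the block (−0.16) and without abstinence rat 4 (range without single rats −1.83 to 3.83). The causes were not tested. In 814 refits of named miRNAs, 620 kept direction and side of the threshold, 170 lost the call, 21 gained it and 3 reversed. Depth limits the 16 called miRNAs under 10 CPM, and intervals cover counting error only.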
